A study of Mus musculus with 13 samples.

Results

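Collagens and other genes of the extracellular matrix, 41 in all, were examined in whole implantation sites. Such a site is a swollen stretch of uterus with its embryo, its decidua and the surrounding maternal wall. The members were chosen by gene symbol from a list that covers the fibrillar collagens, other collagens, basement membrane proteins, fibronectin with the matricellular proteins, proteoglycans, elastic fibre proteins, and lysyl oxidases with matrix proteases. A member was measured where a probe set of the array carried its symbol alone, which held for 38 of 41 members with 91 probe sets. Spp1 and Fbn1 had no such probe set, and both probe sets of Loxl2 shared their symbol field with another gene, so these 3 members were not analysed here. In all, 12010 genes passed the filter on low signals and were tested, and all 38 measured members were among them.

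RNA came from 13 samples, each on 1 Affymetrix Mouse430_2 array. Recipients were pseudopregnant ICR mice, and donors of rat embryos were Wistar rats. On day 9 of pregnancy, 2 arrays held rat sites from uteri that had also received mouse embryos (called co-transfer sites), 2 held rat sites from uteri given rat embryos alone, and 2 held mouse sites. On day 7, 3 arrays held co-transfer sites, 2 held rat sites and 2 held mouse sites. Mouse sites were the control of the study, all sites lay in a mouse uterus, and all embryos had been transferred. Nothing in the labels ties replicate arrays to different animals. The p-values therefore reflect only how far these samples spread, and part of that spread may be technical. The probe sets were designed on mouse sequence, and how well RNA of a rat embryo binds to them was not tested.

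The extracellular matrix is the protein and sugar scaffold between cells. Fibrillar collagens give it strength, basement membranes underlie epithelia and surround decidual cells, and matricellular proteins such as tenascin C and the thrombospondins change how cells hold on to it. In the pregnant uterus the stroma around the embryo becomes the decidua and the matrix is rebuilt as this happens, with enzymes of the lysyl oxidase family joining fibres and ADAMTS proteases cutting proteoglycans.

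Values are the authors' MAS5 signals, an intensity on a linear scale. Each difference is on the scale of log2(signal + 57.1), on which dim probe sets show less change than their linear signals do, and is given with its standard error (SE) from limma. A gene was called where the adjusted p was under 0.05, after Benjamini-Hochberg adjustment over 22155 probe sets. Of the 38 members, 35 lay above the filter threshold on all 13 arrays. Thbs1 did on 10, Thbs2 on 9 and Col8a1 on 4, and the remaining arrays lay below it. Col8a1 passed only through the 4 arrays on which it was high, so that it had to differ to be tested, and its values are a description. Counts of called members below include Col8a1 wherever it was called, and its share in them is not the result of a test. The members had brighter signals than genes at large, with a median of their mean log2 signals of 11.85, against 9.57 over all tested genes.

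Some properties of the arrays moved with the groups. The ratio of the 3′ to the 5′ control probe set of Gapdh was 1.44 and 1.54 in mouse sites on day 7 and 2.56 to 4.07 on the other arrays. The 18S ribosomal control signal was 6209.4 and 6737.2 in rat sites on day 9 and 522.4 to 1933.1 elsewhere. Hybridisation times placed the arrays in 4 wash runs, and 2 comparisons lay within a single run, rat against mouse sites on day 7 and co-transfer against rat sites on day 9. In the others, run and group cannot be told apart. Co-transfer day 7 replicate 3 was alone on its date and scanner.

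Over the 6 groups, matrix genes stood highest most often in rat sites on day 9. There, 20 of 38 members had their highest group mean (52.6%), against 23.5% of all tested genes. Another 8 members were highest in mouse sites on day 7 (21.1%, against 20.2% of all genes). The lowest mean fell in co-transfer sites on day 7 for 15 members (39.5%, against 9.48% of all genes). The log2 range between the highest and lowest group mean had a median of 1.10 over the members and 0.74 over all genes.

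**Figure D1:**
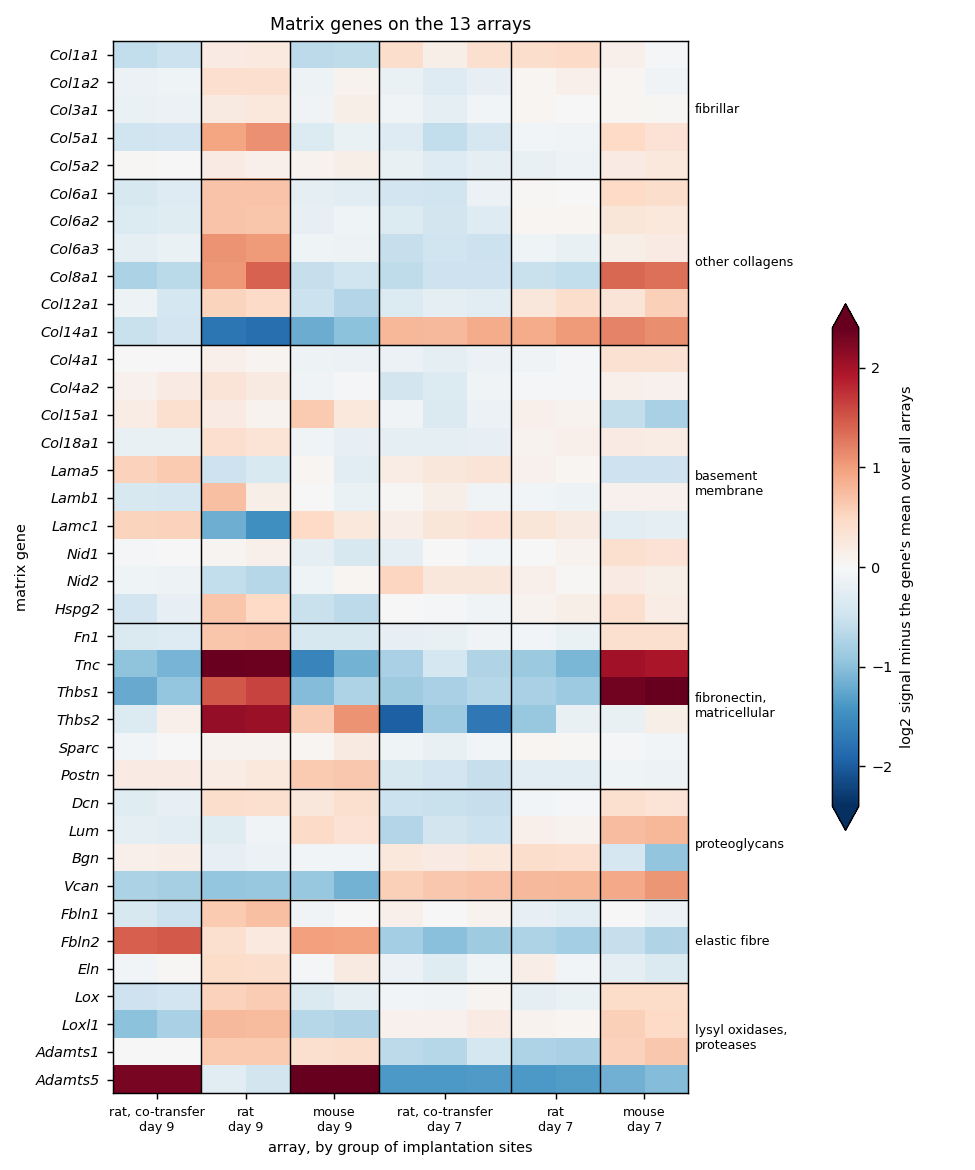
Each row is one of the 38 measured members, ordered by subclass, and each column is 1 of the 13 arrays; colour gives the log2(signal + 57.1) relative to that gene's mean over the arrays, and values past the ends of the colour bar take its end colours. Tnc and Thbs1 stand out in rat sites on day 9 and in mouse sites on day 7, and Adamts5 in co-transfer and mouse sites on day 9.

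On day 7 more matrix genes were lower than higher in rat sites, set against mouse sites. Of the 38 members, 5 rose and 15 fell, a share to be read against 23.3% of all tested genes called either way (11.8% higher, 11.5% lower). The median log2 difference was -0.21 over the members and 0.02 over all genes. The arrays of the 2 groups did not overlap for 36 members, 8 of them higher and 28 lower in rat sites, while 66.2% of all genes had groups apart. Leaving out rat day 7 replicate 1 gave 13 called members, and so did leaving out replicate 2.

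Co-transfer sites on day 7 showed more such differences from mouse sites, with 4 members higher and 25 lower, while 29.9% of all genes were called (14.7% higher, 15.2% lower). The median difference was -0.40 over the members and 0.03 over all genes. This comparison and that of rat sites share the mouse arrays. Set against rat sites directly, 3 members fell in co-transfer sites (Lum, Dcn and Col6a2) and 0 rose in limma's test, against 0.924% of all genes called (0.516% higher, 0.408% lower), and at an unadjusted p under 0.05 there were 12 lower and 3 higher. Leaving out any 1 of the 5 arrays of these groups left no more than 1 member called, which was seen without co-transfer day 7 replicate 2, and 0 without each of the others. By subclass, co-transfer sites on day 7 were lower than mouse sites in 6 of 6 other collagens (with Col8a1, a description only). They were also lower in 5 of 6 genes of fibronectin and the matricellular proteins and 4 of 4 lysyl oxidases and proteases. Of 10 basement membrane genes, 3 were higher and 5 lower. The 5 include Hspg2, whose sign turned with the probe sets used. Of 4 proteoglycans, 1 was higher and 3 lower. Lower too were 2 of 5 fibrillar collagens, and 0 of 3 elastic fibre genes were called.

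On day 9 more matrix genes were higher than lower in rat sites. Of the 38 members, 19 were higher than in mouse sites and 7 were lower, with 33.9% of all genes called (17.5% higher, 16.4% lower) and a median difference of 0.37 over the members and 0.03 over all genes. The arrays of the groups did not overlap for 34 members, 24 of them higher in rat sites, while 65.2% of all genes had groups apart. The day 7 and day 9 comparisons share no array. Of the 15 members lower in rat sites on day 7, 10 were higher in rat sites on day 9, 1 (Lum) was lower again, and 4 were not called. Col8a1, whose values are a description, is among these 10.

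Co-transfer sites on day 9 had fewer called differences from mouse sites, 3 higher (Lama5, Col14a1 and Fbln2) and 5 lower (Lum, Dcn, Postn, Fbln1 and Adamts1), while 8.51% of all genes were called (4.38% higher, 4.13% lower). The median difference was -0.10 over the members and 0.01 over all genes. The count was 2 without co-transfer day 9 replicate 2, 4 without co-transfer day 9 replicate 1, 4 without mouse day 9 replicate 2 and 5 without mouse day 9 replicate 1. Against rat sites on the same day, 6 members were higher and 22 lower in co-transfer sites, with 37% of all genes called (18.2% higher, 18.8% lower) and a median difference of -0.53 over the members and -0.05 over all genes. These arrays were all washed in the same run. Lower in co-transfer sites were 4 of 5 fibrillar collagens and 5 of 6 other collagens (with Col8a1, a description only). So were 4 of 6 genes of fibronectin and the matricellular proteins and 3 of 4 lysyl oxidases and proteases. The 4 fibrillar collagens include Col1a1, of which a second probe set went the other way. In the other collagens and in the lysyl oxidases and proteases, the remaining member was higher. Of 10 basement membrane genes, 3 were higher and 3 lower. Of 3 elastic fibre genes, 1 was higher and 2 lower, and of 4 proteoglycans 1 was lower.

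**Figure D2:**
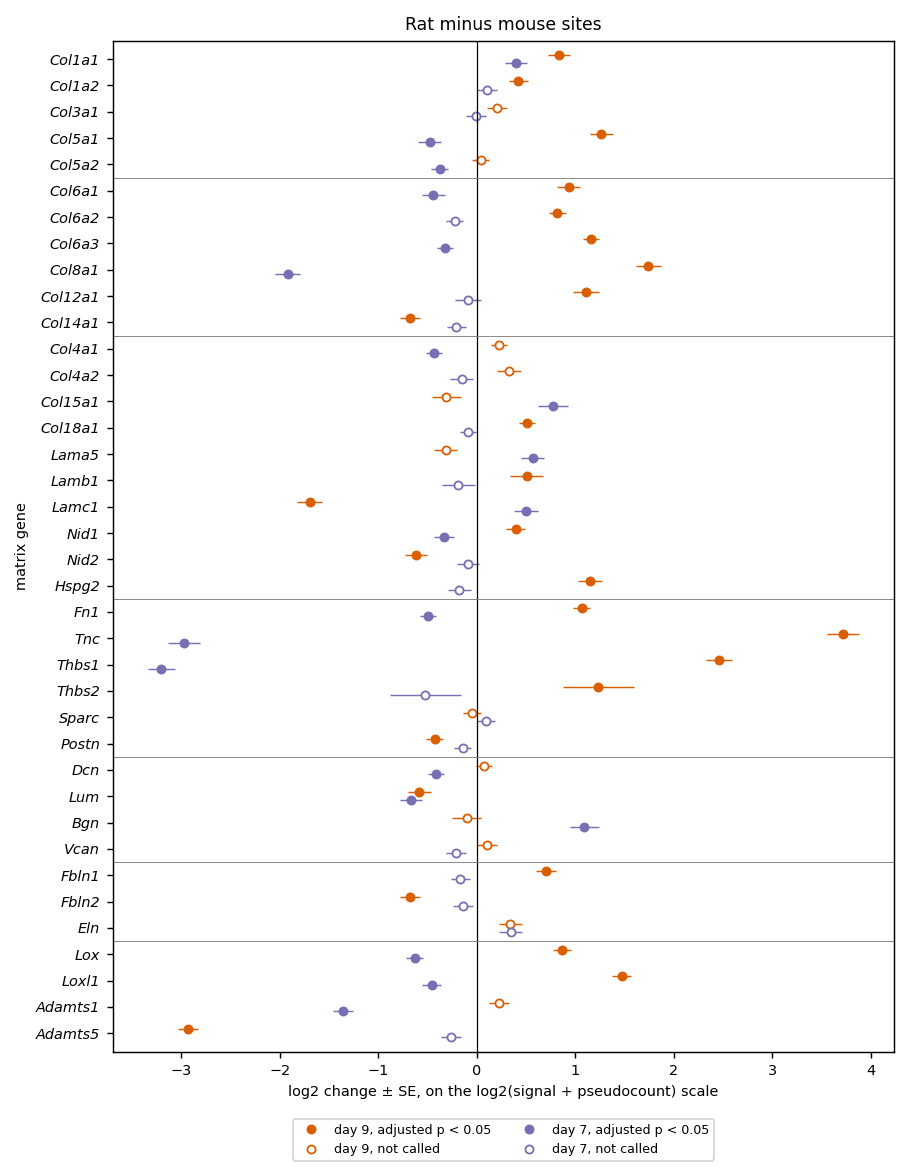
Points give the log2 difference of rat minus mouse sites for each of the 38 members on day 9 and on day 7, with bars of 1 standard error; filled points were called at an adjusted p under 0.05. Tnc, Thbs1 and Col8a1 lie to the right of 0 on day 9 and to the left of 0 on day 7.

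Tnc encodes tenascin C, a large matricellular protein that loosens the hold of cells on fibronectin. Its promoter and that of Col8a1, a collagen gene, are printed because both genes were high in the same 2 of the 6 groups. The 250 bases before each start are from the RefSeq table of GRCm38.p6, with TATAAA in capitals where it occurs.
Tnc, chr4:64047016-64047265, minus strand: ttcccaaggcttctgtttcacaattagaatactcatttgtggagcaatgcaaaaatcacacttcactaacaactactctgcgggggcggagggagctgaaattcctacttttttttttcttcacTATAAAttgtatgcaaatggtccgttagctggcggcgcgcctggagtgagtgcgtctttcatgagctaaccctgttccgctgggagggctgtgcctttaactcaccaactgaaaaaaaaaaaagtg
Col8a1, chr16:57754738-57754987, minus strand: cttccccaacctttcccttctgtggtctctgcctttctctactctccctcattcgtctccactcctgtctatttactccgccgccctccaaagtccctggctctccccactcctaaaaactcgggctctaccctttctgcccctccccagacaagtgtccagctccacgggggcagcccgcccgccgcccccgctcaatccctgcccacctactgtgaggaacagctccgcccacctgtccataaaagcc
The table gives 2 starts for Tnc, 79 bases apart, and the upstream one is shown. Both strands of 29 windows, which belong to 24 members, were searched for 3 motifs. Tnc, Fbln1 and Col6a2 each have a pair of windows that overlap. The CCAAT box was in 8 of them (27.6%), against 33.8% of 32851 windows of all genes. The TATA motif, TATAAA, was in 6 (20.7%), against 12.4% of all windows. These 6 include both windows of Tnc, which hold the same TATAAA, 126 and 205 bases before their starts. The AP-1 motif, TGANTCA with N for any base, was in 1 (3.45%), against 6.75% of all windows. None of these motifs is in the Col8a1 window, which says only that these letters are absent from it.

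On day 9 the Tnc signal was 552 and 488 in co-transfer sites, 6109.8 and 5991 in rat sites and 341 and 482 in mouse sites. On day 7 it was 636, 826 and 663 in co-transfer sites, 587 and 501 in rat sites and 4732 and 4576 in mouse sites. The gene was thus high on 4 arrays, those of rat sites on day 9 and mouse sites on day 7, and the groups at the high level did not overlap with the others. The log2 difference of rat minus mouse sites was 3.72 (SE 0.16, adjusted p = 1.47e-07) on day 9 and -2.97 (SE 0.16, adjusted p = 4.24e-06) on day 7. Co-transfer minus rat sites gave -3.41 (SE 0.16, adjusted p = 2.72e-07) on day 9, and co-transfer minus mouse sites gave -2.63 (SE 0.15, adjusted p = 3.14e-06) on day 7. Co-transfer and mouse sites on day 9 differed by 0.31 (SE 0.16, adjusted p = 0.291), which did not pass the test.

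Thbs1, which encodes thrombospondin 1, a matricellular protein that inhibits the growth of blood vessels and can activate TGF-beta, was high in the same groups. Its signal on day 9 was 193 and 249.6 in co-transfer sites, 1584 and 1739.6 in rat sites and 226 and 288 in mouse sites. On day 7 it was 266, 282 and 303 in co-transfer sites, 283 and 259.6 in rat sites and 2838 and 3092 in mouse sites. Again the 2 arrays of rat sites on day 9 and the 2 of mouse sites on day 7 were high and apart from the rest. It differed between rat and mouse sites by 2.46 (SE 0.13, adjusted p = 6.4e-07) on day 9 and -3.20 (SE 0.13, adjusted p = 1.41e-06) on day 7.

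Col8a1 encodes a chain of collagen VIII, a short-chain collagen that forms networks. It had signals of 107 and 119.9 in co-transfer sites, 509 and 679.9 in rat sites and 131 and 141 in mouse sites on day 9. On day 7 the signals were 125, 139.9 and 139 in co-transfer sites, 134 and 126 in rat sites and 665 and 637 in mouse sites. Outside the 2 high groups the gene was near the dim end of the signals tested, so its changes are understated on this scale. For rat minus mouse sites the log2 difference was 1.74 on day 9 and -1.92 on day 7, given as a description with no test because the gene passed the filter only through its high arrays.

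**Figure D3:**
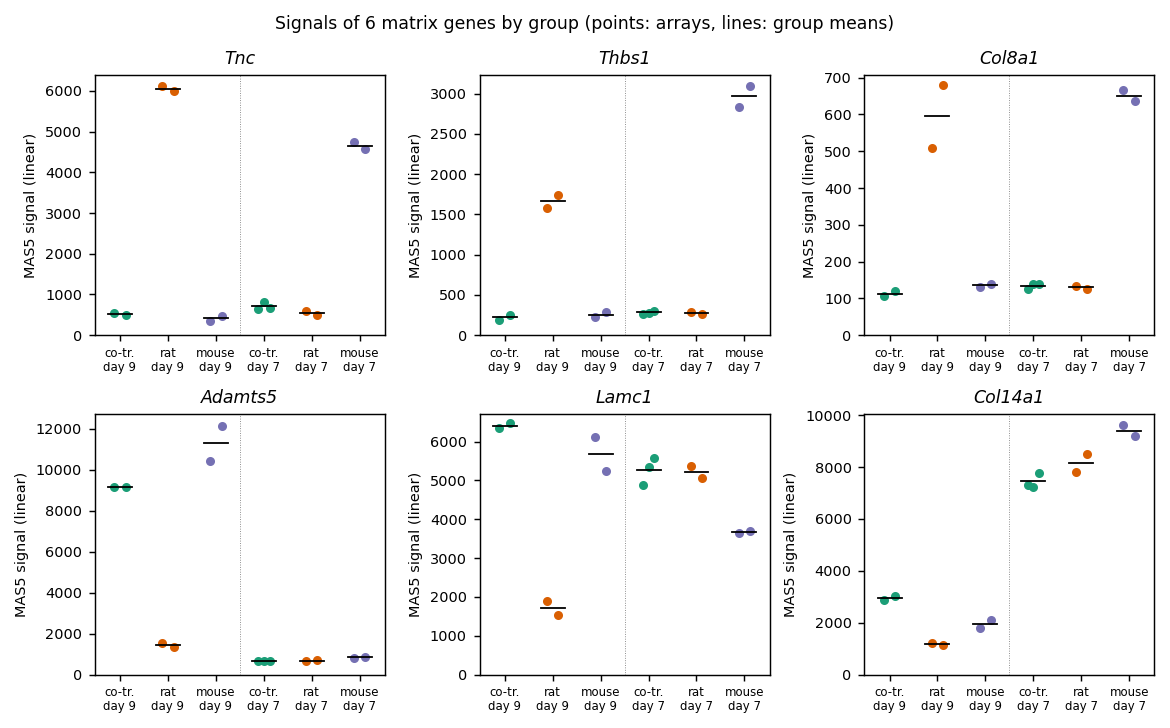
Each panel plots the MAS5 signal of a named member on a linear axis from 0 for every array, with a line at the mean of each group, the 3 groups of day 9 on the left and those of day 7 on the right. Tnc, Thbs1 and Col8a1 show the same 2 high groups, while Adamts5 is high in co-transfer and mouse sites on day 9.

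Thbs2 encodes thrombospondin 2, a relative of Thbs1 that limits vessel growth and affects collagen fibril assembly. It measured 278 and 402 in co-transfer sites, 1759 and 1719.7 in rat sites and 590.5 and 841 in mouse sites on day 9, and the 3 groups did not overlap. On day 7 the values were 51.3, 176 and 72.4 in co-transfer sites, 169 and 318 in rat sites and 318 and 409 in mouse sites, with overlaps and the widest spread of the members named here. Co-transfer minus rat sites on day 9 gave -2.20 (SE 0.36, adjusted p = 0.00109), and rat minus mouse sites gave 1.24 (SE 0.36, adjusted p = 0.0254). The other 2 probe sets of Thbs2 had the same direction in both comparisons but differed in size, with -3.61 and -4.81 for co-transfer minus rat sites and 2.15 and 2.66 for rat minus mouse sites. They differed on day 7 too, where rat minus mouse sites gave -2.55 (adjusted p = 0.000357 in limma's test) through one of them and -0.92 (adjusted p = 0.217) through the other, against -0.52 (adjusted p = 0.335) through the brightest. The probe set with -3.61 and 2.15 averaged 1181.3 in rat sites on day 9 and 227.3 or less in the other groups, where filter thresholds were 221 to 291.2. It may have passed the filter only through those rat arrays, so its values on day 9 are a description.

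Fn1 encodes fibronectin, the adhesive glycoprotein that integrins bind. It had signals of 9216 and 9356 in co-transfer sites, 18599 and 18910.3 in rat sites and 8914 and 8922 in mouse sites on day 9. On day 7 the values were 10149.5, 10249.8 and 11067 in co-transfer sites, 11183 and 10401 in rat sites and 15161 and 15258 in mouse sites. Rat sites on day 9 were the highest group and mouse sites on day 7 came next, with no overlap between either and any other group. Rat minus mouse sites gave 1.07 (SE 0.09, adjusted p = 9.2e-06) on day 9 and -0.49 (SE 0.09, adjusted p = 0.00263) on day 7.

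Postn encodes periostin, which binds collagen and the lysyl oxidase machinery, and it moved differently. Its signal on day 9 was 9914 and 9850.0 in co-transfer sites, 9836 and 10326 in rat sites and 13436 and 13642 in mouse sites, so both rat-embryo groups lay below the mouse sites, with differences of -0.45 (SE 0.09, adjusted p = 0.0126) for co-transfer and -0.42 (SE 0.09, adjusted p = 0.00442) for rat sites. Sparc, a collagen-binding matricellular protein of the decidua, ranged from 16684 to 22009 over all arrays. limma called it in 0 of the 9 comparisons between groups, and 0 of the 9 passed at an unadjusted p under 0.05, and its range between group means was wider than that of 3.13% of genes. Over the subclass of 6 measured genes, 4 rose and 1 fell in rat against mouse sites on day 9, and 3 fell on day 7. Of all tested genes, 33.9% were called on day 9 and 23.3% on day 7.

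Among the 5 fibrillar collagens, 3 rose in rat against mouse sites on day 9 (Col1a1, Col1a2 and Col5a1). On day 7, 1 rose and 2 fell. Over all tested genes 33.9% were called on day 9 and 23.3% on day 7. Col1a1 and Col1a2 encode the chains of collagen I, the main tensile collagen of uterine stroma, and Col5a1 a chain of collagen V, which starts its fibrils. Col5a1 had signals of 2007 and 2039.6 in co-transfer sites, 5468 and 6123 in rat sites and 2248 and 2504 in mouse sites on day 9, with rat sites apart from both other groups. On day 7 the signals were 2268, 1858 and 2134 in co-transfer sites, 2703 and 2664 in rat sites and 3936 and 3596 in mouse sites, so mouse sites were the highest. The difference of rat minus mouse sites was 1.27 (SE 0.12, adjusted p = 2.34e-05) on day 9 and -0.48 (SE 0.12, adjusted p = 0.0143) on day 7.

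Col1a1 was high in several groups. Its signals were 7465 and 7882 in co-transfer sites, 12926 and 13360.3 in rat sites and 7304 and 7378 in mouse sites on day 9. On day 7 they were 15228, 12528 and 14737 in co-transfer sites, 15181 and 15489.8 in rat sites and 12374 and 10949 in mouse sites. Rat sites exceeded mouse sites on both days, by 0.84 (SE 0.11, adjusted p = 0.000315) on day 9 and 0.40 (SE 0.11, adjusted p = 0.028) on day 7. A second probe set of Col1a1 did not show the excess on day 7, with means of 1087.2 in rat and 1096.7 in mouse sites. On day 9 its means were 1092.6 in rat and 759.5 in mouse sites. That probe set went the other way in co-transfer minus rat sites on day 9, with 0.89 (adjusted p = 0.0034) against -0.77 for the one used, and the mean of both gave 0.06. Col3a1, which encodes collagen III, the partner of collagen I in soft tissue, measured 17619.6 and 17815 in co-transfer sites, 22792 and 23432 in rat sites and 18583 and 21652 in mouse sites on day 9. Co-transfer minus rat sites gave -0.38 (SE 0.10, adjusted p = 0.0155) for it. Col5a2 changed sign with the probe set, as its change between days in rat sites was 0.31 through the brightest and -0.01 through the mean. Its 2 probe sets also parted within day 9. The second averaged 2976.9 in rat, 5263.5 in mouse and 5336.6 in co-transfer sites. The one used averaged 10290.2, 9996.8 and 9280.9 in the same order.

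Of the 6 other collagens, 5 rose and 1 fell in rat against mouse sites on day 9, with 33.9% of all genes called. In co-transfer against rat sites 1 rose and 5 fell. Col8a1, whose values are a description, is among the 5 in both counts. The median log2 difference of the 6 was 1.02 for rat minus mouse sites, against 0.03 over all genes. Col6a1, Col6a2 and Col6a3 encode the chains of collagen VI, which forms beaded filaments around cells. Col6a3 had signals of 5714 and 5955 in co-transfer sites, 14124 and 13539 in rat sites and 6211 and 6088 in mouse sites on day 9, and the rat sites were more than the spread of replicates above both. On day 7 its signals were 4529.7, 4751 and 4630.3 in co-transfer sites, 6171 and 5837 in rat sites and 7355 and 7648 in mouse sites. It differed between rat and mouse sites by 1.16 (SE 0.08, adjusted p = 3.98e-06) on day 9 and -0.32 (SE 0.08, adjusted p = 0.0197) on day 7.

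Col6a2 measured 7277 and 7463 in co-transfer sites, 14606 and 14434 in rat sites and 7958 and 8471 in mouse sites on day 9. On day 7 it measured 7266, 6687 and 7329 in co-transfer sites, 9423 and 9478 in rat sites and 11228 and 10862 in mouse sites, with the 3 groups apart in that ascending order. Co-transfer minus rat sites on day 7 gave -0.41 (SE 0.08, adjusted p = 0.046). The Col6a2 call did not hold without any 1 of the 5 arrays.

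Col14a1, which encodes a fibril-associated collagen that binds the surface of collagen I, was the member of this subclass that fell in rat sites on day 9. Its signals were 2879 and 3028 in co-transfer sites, 1219 and 1158 in rat sites and 1801 and 2087 in mouse sites on day 9, with the 3 groups apart. On day 7 they were 7324, 7229 and 7788 in co-transfer sites, 7790.4 and 8522 in rat sites and 9628 and 9185 in mouse sites. Rat minus mouse sites gave -0.68 (SE 0.10, adjusted p = 0.000621) on day 9, and co-transfer minus mouse sites gave 0.59 (SE 0.10, adjusted p = 0.00672), which without the probe sets shared by transcripts was 0.38 (adjusted p = 0.204).

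The 10 basement membrane genes did not move one way. In rat against mouse sites on day 9, 4 rose and 2 fell, with 33.9% of all genes called. On day 7, 3 rose and 2 fell, with 23.3% of all genes called. Lamc1 encodes the laminin gamma chain that most laminins share, and its signals on day 9 were 6358 and 6469.7 in co-transfer sites, 1902 and 1536 in rat sites and 6132 and 5248 in mouse sites, with rat sites below both other groups. On day 7 they were 4879.7, 5343 and 5581 in co-transfer sites, 5385 and 5064 in rat sites and 3659 and 3692 in mouse sites. Between rat and mouse sites the log2 difference was -1.70 (SE 0.12, adjusted p = 4.69e-06) on day 9 and 0.50 (SE 0.12, adjusted p = 0.0158) on day 7.

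Lama5, the laminin alpha chain of mature epithelia and vessels, measured 4714 and 4979 in co-transfer sites, 2232 and 2457 in rat sites and 3279.5 and 2613 in mouse sites on day 9. The co-transfer sites were above both other groups, by 0.72 (SE 0.11, adjusted p = 0.00493) over mouse sites and 1.03 (SE 0.11, adjusted p = 8.7e-05) over rat sites. Col4a1 encodes a chain of collagen IV, the network collagen of basement membranes. It measured 10287, 9662 and 10409 in co-transfer sites, 10715 and 11067 in rat sites and 14745 and 14650.1 in mouse sites on day 7, so mouse sites were above both groups with rat embryos. The difference of rat minus mouse sites was -0.43 (SE 0.08, adjusted p = 0.00433) on day 7. For Hspg2, which encodes the heparan sulfate proteoglycan perlecan, the sign turned with the probe sets used, from -0.87 through the brightest to 0.29 without shared probe sets in the change between days of mouse sites.

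Further collagens and basement membrane genes differed in both directions between rat and mouse sites on day 9. Col12a1, a fibril-associated collagen, gave 1.11 (SE 0.13, adjusted p = 0.000157), and Col6a1 gave 0.93 (SE 0.12, adjusted p = 0.000222). Col18a1, the source of endostatin, gave 0.51 (SE 0.08, adjusted p = 0.00104), and Hspg2 gave 1.15 (SE 0.12, adjusted p = 6.58e-05). A second probe set of Hspg2 differed less, with means of 933.5 in rat and 817 in mouse sites, against 1457.8 and 624.6 for the one used. Nid1 and Nid2 encode nidogens, which link laminin to collagen IV, and they moved apart, with 0.40 (SE 0.10, adjusted p = 0.0129) for Nid1 and -0.61 (SE 0.11, adjusted p = 0.00231) for Nid2. Lamb1, a laminin beta chain, gave 0.51 (SE 0.17, adjusted p = 0.0428). Col4a2, the partner of Col4a1, gave 0.33 (SE 0.12, adjusted p = 0.0583) and Col15a1, a collagen beside vessels and muscle, gave -0.31 (SE 0.15, adjusted p = 0.146), and neither passed the test. On day 7 Col15a1 was higher in rat sites, with 0.77 (SE 0.15, adjusted p = 0.00468).

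Of the 4 proteoglycans, Dcn and Lum encode decorin and lumican, small proteins that set the width of collagen fibrils. Lum had signals of 2493 and 2425 in co-transfer sites, 2408 and 2780.3 in rat sites and 4062 and 3745 in mouse sites on day 9. On day 7 they were 1786, 2165 and 2031 in co-transfer sites, 3209 and 3108 in rat sites and 4934 and 5152 in mouse sites. Mouse sites were the highest on both days, and rat sites were between the others on day 7. Co-transfer minus rat sites on day 7 gave -0.65 (SE 0.10, adjusted p = 0.0219), which did not hold without either rat array or without co-transfer replicate 1 or 3. Dcn gave -0.49 (SE 0.08, adjusted p = 0.0219) in the same comparison, with signals of 4359.8, 4309 and 4246 in co-transfer sites, 5978 and 6139 in rat sites and 8231 and 7938 in mouse sites, and this call was lost without each of the 5 arrays.

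Bgn encodes biglycan, a relative of decorin. On day 7 its signals were 6616, 6421 and 6681 in co-transfer sites, 7525 and 7401 in rat sites and 4187 and 2869 in mouse sites, and the mouse arrays were both lower than the other 5 arrays of that day and differed from each other. Rat minus mouse sites gave 1.09 (SE 0.14, adjusted p = 0.000613). Vcan encodes versican, a large proteoglycan that ADAMTS1 and ADAMTS5 cut, and it fell between days in all 3 kinds of site. It measured 1684 and 1644 in co-transfer sites, 1485 and 1508 in rat sites and 1501 and 1278 in mouse sites on day 9. On day 7 it measured 4334, 4522 and 4672 in co-transfer sites, 4959 and 5040.0 in rat sites and 5497 and 6078 in mouse sites. The change was -1.41 (SE 0.09, adjusted p = 5.53e-06) in co-transfer sites, -1.70 (SE 0.10, adjusted p = 1.11e-06) in rat sites and -2.02 (SE 0.10, adjusted p = 4.72e-07) in mouse sites.

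Among the elastic fibre genes, Fbln2 encodes fibulin 2, which binds fibronectin, elastin and laminin. It measured 6386 and 6522 in co-transfer sites, 3042 and 2734 in rat sites and 4667 and 4619 in mouse sites on day 9, with the 3 groups apart. On day 7 it measured 1297, 1132 and 1269 in co-transfer sites, 1372 and 1303 in rat sites and 1566 and 1394 in mouse sites. Between days it rose by 2.34 (SE 0.09, adjusted p = 2.27e-07) in co-transfer sites, 1.08 (SE 0.10, adjusted p = 3.35e-05) in rat sites and 1.61 (SE 0.10, adjusted p = 2.53e-06) in mouse sites. On day 9 Eln, which encodes elastin, gave 0.34 (SE 0.12, adjusted p = 0.0531) in rat minus mouse sites and did not pass the test, while Fbln1, a relative of Fbln2, gave 0.70 (SE 0.10, adjusted p = 0.000397). Fbln1 turned sign with the probe sets used, from 0.90 through the brightest to -0.14 without shared probe sets in the change between days of rat sites.

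Adamts5 encodes a protease that cuts aggrecan and versican. Its signals on day 9 were 9174 and 9150.0 in co-transfer sites, 1523 and 1339.6 in rat sites and 10431 and 12159.8 in mouse sites. On day 7 they were 669, 671 and 677 in co-transfer sites, 676 and 694 in rat sites and 800.0 and 866 in mouse sites. Rat sites on day 9 were the lowest of that day and above all arrays of day 7, with no overlap with any other group. For rat minus mouse sites the log2 difference was -2.93 (SE 0.10, adjusted p = 3.96e-08) and co-transfer minus rat sites 2.63 (SE 0.10, adjusted p = 8.04e-08) on day 9. The range between its group means was wider than that of 99.3% of all tested genes.

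Adamts1 encodes a related protease that is known in the mouse from ovulation and uterine growth. On day 7 its signals were 2248, 2163 and 2609 in co-transfer sites, 2076 and 2040.3 in rat sites and 5184 and 5547 in mouse sites, so the mouse sites were above the rest. Between rat and mouse sites the log2 difference was -1.36 (SE 0.10, adjusted p = 2.32e-05). Lox and Loxl1 encode lysyl oxidases, copper enzymes that cross-link collagen and elastin. Loxl1 had signals of 1112 and 1302 in co-transfer sites, 3916 and 3881 in rat sites and 1382 and 1355 in mouse sites on day 9. On day 7 the signals were 2422, 2440.2 and 2613 in co-transfer sites, 2412 and 2335 in rat sites and 3392 and 3173 in mouse sites. Rat sites on day 9 and mouse sites on day 7 were the 2 highest groups. Rat minus mouse sites gave 1.47 (SE 0.10, adjusted p = 2.49e-06) for Loxl1 and 0.87 (SE 0.09, adjusted p = 5.63e-05) for Lox on day 9.

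**Figure D4:**
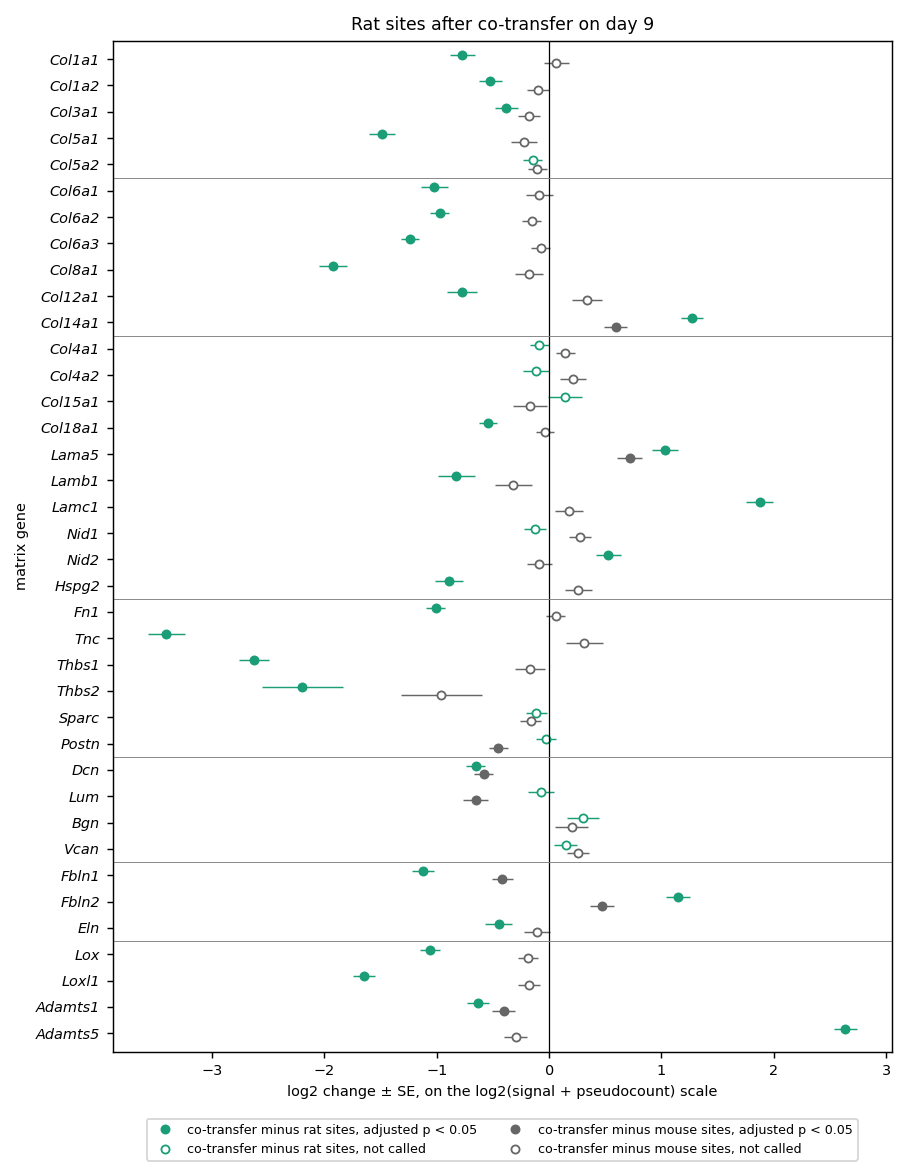
Points give the log2 difference on day 9 for each of the 38 members, co-transfer minus rat sites and co-transfer minus mouse sites, with bars of 1 standard error; filled points were called at an adjusted p under 0.05. Tnc and Thbs1 lie far to the left and Adamts5 far to the right in the comparison with rat sites, while none of these 3 was called in that with mouse sites.

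Between days, more matrix genes rose than fell in rat sites and more fell than rose in mouse sites. In co-transfer sites 11 members rose and 7 fell on day 9 against day 7, with 27.9% of all genes called (12.4% higher, 15.5% lower), and 10 were called without co-transfer day 9 replicate 2. In rat sites 23 rose and 6 fell, with 42.3% of all genes called (19.9% higher, 22.4% lower). In mouse sites 8 rose and 19 fell, with 44.4% of all genes called (20.5% higher, 23.9% lower). The change between days of Tnc was 3.35 (SE 0.16, adjusted p = 3.31e-07) in rat sites and -3.34 (SE 0.16, adjusted p = 4.15e-07) in mouse sites, and that of Thbs1 was 2.39 (SE 0.13, adjusted p = 7.88e-07) in rat sites and -3.27 (SE 0.13, adjusted p = 1.41e-07) in mouse sites. Thbs2 rose by 2.63 (SE 0.36, adjusted p = 0.000352) in rat sites, and Col14a1 fell there, with -2.72 (SE 0.10, adjusted p = 7.02e-08). The change of Adamts5 was 3.66 (SE 0.09, adjusted p = 1.7e-08) in co-transfer sites, 1.00 (SE 0.10, adjusted p = 5.2e-05) in rat sites and 3.67 (SE 0.10, adjusted p = 1.15e-08) in mouse sites.

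The interaction, which tests whether the difference between rat and mouse sites changed between days, was positive for 21 members and negative for 8, while 34.5% of all genes were called (17.1% higher, 17.4% lower). The 21 include Col8a1, which is a description only. The values were 6.69 (SE 0.23, adjusted p = 4.2e-08) for Tnc and 5.66 (SE 0.19, adjusted p = 3.74e-08) for Thbs1. Among the 21, Hspg2 turned from 1.32 to -0.13 and Fbln1 from 0.87 to -0.31 without shared probe sets. Col5a2 turned from 0.42 to -0.10 through the mean of its probe sets. For co-transfer against rat sites the interaction was positive for 6 and negative for 15, while 28.6% of all genes were called (14.9% higher, 13.7% lower). Here Tnc gave -3.75 (SE 0.22, adjusted p = 2.4e-06), Thbs1 gave -2.68 (SE 0.18, adjusted p = 5.58e-06) and Adamts5 gave 2.66 (SE 0.14, adjusted p = 1.26e-06).

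Lists of genes that make, bind or signal through the matrix were counted in the same way. Of 21 matrix receptors, 10 rose and 3 fell in rat against mouse sites on day 9, and 12 fell on day 7. These counts, and those of the lists that follow, stand against 33.9% of all tested genes called on day 9 and 23.3% on day 7. Itgb4, a receptor of this list, had signals of 296.8 and 332.9 in rat sites on day 9 and 151.3 or less elsewhere. It passed the filter only through those rat arrays, so its share in the counts of receptors is a description. Cd44, the receptor for hyaluronan, was higher in rat sites on day 9, with a mean signal of 2855 ± 248 against 699 ± 24.7 in mouse sites (SD, n = 2 each, log2 difference 1.94, SE 0.11, adjusted p = 6.79e-07). Sdc4, a heparan sulfate coreceptor of fibronectin, was higher too, with 8580 ± 63.5 against 2618 ± 126 (1.69, SE 0.10, adjusted p = 1.18e-06). Itgb3, the integrin beta chain that binds vitronectin and fibronectin, was lower in rat sites on day 7, with 374 ± 8.56 against 1177 ± 2.47 (-1.52, SE 0.13, adjusted p = 5.06e-05).

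Of 14 collagen synthesis enzymes and chaperones, 4 rose and 4 fell in rat against mouse sites on day 9, while 2 rose and 3 fell on day 7. Plod2, which hydroxylates lysine in collagen, gave -1.34 (SE 0.09, adjusted p = 8.76e-06) on day 7, and Pcolce, an enhancer of procollagen processing, gave -0.84 (SE 0.12, adjusted p = 0.000378) on day 9. Of 16 genes of TGF-beta signalling, 7 rose and 3 fell on day 9, and 1 rose and 4 fell on day 7 (31.2% called on day 7, against 23.3% of all genes). Ltbp1, which stores latent TGF-beta in the matrix, was higher in rat sites on day 9 (2.09, SE 0.10, adjusted p = 2.3e-07) and lower on day 7 (-1.40, SE 0.10, adjusted p = 1.46e-05). Ccn2, a matricellular target of TGF-beta, was lower in rat sites on day 7 (-1.91, SE 0.10, adjusted p = 3.2e-06). Of 29 other matrix structural genes, 9 rose and 8 fell on day 9. Lama3, a chain of the laminin of epithelial anchoring, was higher in rat sites on day 9, with 2.50 (SE 0.15, adjusted p = 1.22e-06).

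Fewer cells of a type and less RNA per cell cannot be told apart in whole tissue. Sums of epithelial and smooth muscle markers were highest in rat sites on day 9, where many matrix genes were highest too. Those of decidual stroma and of endothelium were lowest there. The part of any cell type in these results was not tested. The summed signal of 7 epithelial markers was 7210 to 7442 in co-transfer sites, 59084 to 62361 in rat sites and 20753 to 20762 in mouse sites on day 9. On day 7 the sums were 11579 to 12097 in co-transfer sites, 11710 to 11947 in rat sites and 26458 to 26575 in mouse sites. All 7 epithelial markers and 6 of 7 smooth muscle markers rose in rat against mouse sites on day 9. These counts, and that of the decidual markers below, stand against 33.9% of all tested genes called (17.5% higher, 16.4% lower). Muc1, among the epithelial markers, ranged from 2254.2 to 2782 in rat sites on day 9 and was 276.3 or less elsewhere. It passed the filter only through those rat arrays, so its values, and its share in the count, are a description. Smooth muscle markers summed to 36614 to 38477 in co-transfer sites, 59879 to 60918 in rat sites and 38588 to 39315 in mouse sites on day 9. On day 7 they summed to 40031 to 43123 in co-transfer sites, 48310 to 48467 in rat sites and 53813 to 54162 in mouse sites. The 8 markers of uterus and decidual stroma summed to 66076 to 68159 in co-transfer sites, 32616 to 33077 in rat sites and 57041 to 62953 in mouse sites on day 9. Of these 8, 2 rose in rat against mouse sites on day 9 (Pgr by 0.56 and Alpl by 0.81 on the log2 scale) and 6 fell. Hand2, among those that fell, ranged from 1899.5 to 1906.5 in rat sites on day 9 and from 11643 to 14910 on the other arrays. The 4 markers of fibroblasts and stroma summed to 29712 to 31699 in rat sites and 26127 to 28258 in mouse sites on day 9. They did not move one way. Pdgfrb (5470.7 to 6007 against 1609.8 to 2009.7) and Vim were higher in rat sites. Pdgfra (7533.9 to 7635.6 against 9091.2 to 9224) and Thy1 were lower.

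Endothelial markers, 7 of 7 measured, were summed beside the basement membrane genes. On day 9 the sums were 11838 to 12375 in co-transfer sites, 6128 to 6294 in rat sites and 10799 to 11637 in mouse sites. Pecam1, Cdh5, Tek, Tie1 and Esam were lower in rat than in mouse sites. Kdr and Emcn overlapped, with 898.9 to 975.8 against 873.8 to 940.4 for Kdr and 833.4 to 1013.5 against 967.5 to 1047.1 for Emcn. Of 6 markers of parietal endoderm and trophoblast giant cells, 3 were measured, and they summed to 2246 to 2276 in co-transfer sites, 1903 to 2068 in rat sites and 17150 to 20859 in mouse sites on day 9. The 6 markers of yolk sac and embryonic blood summed to 284 to 439 in co-transfer sites, 1762 to 1941 in rat sites and 65112 to 65664 in mouse sites on day 9, and to 835 or less on day 7. In mouse sites on day 9 most of the parietal endoderm and trophoblast sum was the signal of Prl4a1, at 14099 to 17725.1, while Hand1 at 260.6 to 372.6 overlapped with other groups. The 6 markers of macrophages and leukocytes summed to 18353 to 18946 in co-transfer sites, 15847 to 17660 in rat sites and 19668 to 20125 in mouse sites on day 9.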

How the data were processed

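RNA of 13 implantation site samples was hybridised to 1 Affymetrix Mouse430_2 array each. The authors deposited 1 MAS5 signal for each probe set, an intensity that is not logged. The tool is named in the submitters' processing notes, without its version. The mean of each array's values without the lowest and highest 2 percent was 500, so the arrays had been scaled to 1 target before deposit. All 13 columns of the value table matched a sample. The number of arrays limits the precision.

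Probe sets were named through the platform annotation given for this work: of 45101 probe sets, 34958 had 1 symbol, 932 several and 9211 none, and a probe set with several symbols was not used. Signals were taken as log2(signal + 57.1), where 57.1 is the 25th percentile of all values. Probe sets above the 60th percentile of the array on at least 2 arrays were tested, 22155 in all, which is 12010 genes, each represented by its brightest tested probe set. limma 3.58.1 (R 4.3.3) fitted 6 group means over all 13 arrays (lmFit and eBayes, 7 residual and 2.71 prior degrees of freedom), with Benjamini-Hochberg adjustment over all tested probe sets and a threshold of 0.05. The fit was tested on simulated data.

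The comparisons were 6 within a day, 3 between days and 2 interactions. Members with values on every array are the 3 called members with the largest absolute change in each comparison within a day or between days and those of each subclass with the highest mean signal, with further members added after their values were seen. A gene outside the set was named only if it was 1 of the 2 called genes of its list with the largest absolute change in a comparison within a day, or a marker. The members and lists were chosen with earlier results of these data known. Wash runs were inferred from hybridisation times in the experiment files, where a gap over 30 minutes started a new run. Sequences are from RefSeq, GRCm38.p6. Alternatives changed the pseudocount, the filter, the normalization, the probe sets used, the blocks, the arrays in the fit and the replicates left out.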

Additional observations from a re-analysis of the deposited data

Results flagged for a closer look

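For Tnc and Thbs1 the difference between rat and mouse sites changed between days in a test of the difference itself. The interaction was 6.69 for Tnc (SE 0.23, adjusted p = 4.2e-08) and 5.66 for Thbs1 (SE 0.19, adjusted p = 3.74e-08). The same difference was 3.67 for Col8a1, given as a description with no test because the gene passed the filter only through the 4 arrays on which it was high. In each of the 3 genes, all rat arrays were above all mouse arrays on day 9 and below them on day 7.

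For co-transfer against rat sites the interaction was -3.75 for Tnc (SE 0.22, adjusted p = 2.4e-06), -2.68 for Thbs1 (SE 0.18, adjusted p = 5.58e-06) and 2.66 for Adamts5 (SE 0.14, adjusted p = 1.26e-06). Co-transfer minus rat sites on day 7 gave log2 differences of 0.34 for Tnc (adjusted p = 0.331), 0.05 for Thbs1 (adjusted p = 0.892) and -0.02 for Adamts5 (adjusted p = 0.943). All groups were too small to look for outlying arrays.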

How the results depend on the processing

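Counts of called members within 1.5 times of the main count are not repeated here. For co-transfer against rat sites on day 7 (3 members called), a pseudocount of 200 gave 5, and 0 were called with no filter on low signals, with the replicate block, with hybridisation date as a block, and with only the arrays of the compared groups. For rat against mouse sites on day 7 (20 called), no filter gave 13. For co-transfer against mouse sites on day 9 (8 called), no filter gave 4, leaving out shared probe sets gave 4 and using only the compared groups gave 0. Leaving out 1 array gave 13 to 14 for rat against mouse sites on day 7, 0 to 1 for co-transfer against rat sites on day 7, 2 to 5 for co-transfer against mouse sites on day 9 and 10 to 17 for the change of co-transfer sites between days. The cause of these shifts was not tested.

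Of 430 values of the 33 named results under the alternatives, with those of Col8a1 included as a description, 396 kept their direction and side of the threshold, 34 kept their direction but missed the threshold, and 0 were reversed. Those that missed it concerned Lum, Dcn and Col6a2 on day 7 and Lama5, Lum and Col14a1 on day 9, all in comparisons of co-transfer sites. Quantile normalization moved the median of all genes by at most 0.05.

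Replicate numbers were shared between groups. Deviations from the group means of same-numbered arrays correlated at -0.206 to 0.091 over 30 pairs, 0 of them over 0.1. In a group of 2 arrays the deviations mirror each other, so a pair of such groups gave the same value under both numbers. The 30 pairs are therefore not all independent. Weak correlations of this kind cannot exclude that same-numbered arrays shared an animal or handling, which was not tested. With the replicate number as a block, 223 of 238 calls of members over the 11 comparisons remained in the same direction. Groups of 2 or 3 arrays limit what can be seen, and signals near the dim end compress changes.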

Other observations

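Among related genes outside the set, Mfap4, a microfibril protein, passed the filter only through arrays on which it was high, so its values are a description with no test. On day 7 its signal averaged 47.0 ± 8.35 in 3 arrays of co-transfer sites and 280.5 ± 13.3 in 2 arrays of rat sites (SD). Itga5, the alpha chain of the fibronectin receptor, was lower in co-transfer sites than in rat sites on day 7, with 989 ± 127 against 1547 ± 129.97 in rat sites (-0.62, SE 0.11, adjusted p = 0.0398 in limma's test).

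Tgfb2, which encodes transforming growth factor beta 2, was low in rat sites on day 9. It averaged 1759 ± 182 in co-transfer sites, 542 ± 50.6 in rat sites and 2262 ± 179.6 in mouse sites (SD, n = 2 each), and rat minus mouse sites gave -1.95 (SE 0.14, adjusted p = 5.09e-06). Sdc1, a heparan sulfate proteoglycan of epithelial surfaces, was lower in co-transfer than in rat sites on day 9 (-1.54, SE 0.14, adjusted p = 2.44e-05). Lama1, the laminin alpha chain of early embryonic basement membranes, averaged 235 ± 32.4 in co-transfer sites, 212 ± 11.03 in rat sites and 563 ± 89.6 in mouse sites on day 9. Co-transfer minus mouse sites gave -1.08 for it (SE 0.15, adjusted p = 0.00236).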
